A study of Saccharomyces cerevisiae with 6 samples.

Results

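The *FRE* genes of *Saccharomyces cerevisiae* encode a family of metalloreductases, and the 8 members *FRE1* to *FRE8* were matched by symbol in the probe-to-gene table of the array. Each member had 1 probe set, so the rule of taking the brightest probe set of a gene left nothing to choose, and the 8 were part of 5449 genes with a probe set. GeneChip Yeast Genome 2.0 arrays, 6 in all, held RNA of strain BY4742 in 3 groups of 2. Cells of the first group were treated with nystatin at 0.27 mg/L plus 100 mg/L CdS QDs (cadmium sulphide quantum dots), cells of the second with nystatin at 0.27 mg/L, and the untreated control had neither. All cultures were grown for 24 h in YPD and moved to YPD with or without the agents for another 24 h. The paper's methods give a slightly lower dose of nystatin than the labels. BY4742 is a haploid strain of the alpha mating type that carries the mutations his3Δ1, leu2Δ0, lys2Δ0 and ura3Δ0 in every group. No group received CdS QDs without nystatin, a polyene that binds ergosterol and opens pores in the membrane, and it was added to help the QDs into the cells. The effect of CdS QDs can therefore be read only on top of nystatin. According to the paper the arrays of a group came from aliquots of RNA extract, so p-values measure the spread between such arrays, which may be technical.

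Fre proteins are membrane flavocytochromes that carry electrons across a membrane to ferric iron or cupric copper, which makes the reduced metal available to transporters. At the cell surface the iron so reduced enters through the oxidase Fet3 and the permease Ftr1, and the copper through Ctr1 and Ctr3. Yeast induces most of the family when iron is short, through the transcription factors Aft1 and Aft2. *FRE7* and, together with iron control, *FRE1* answer to copper shortage through the factor Mac1. Here *FRE1* and *FRE7* stand as the copper-regulated members and the other 6 as the iron-regulated ones. *FRE1* belongs in part to both classes, and *FRE8*, the least known member, was put with the iron class only because it is not in the copper class.

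The values are log2 intensities after RMA, so a difference of 1 is a 2-fold difference. Probe sets for the fission yeast *S. pombe*, whose RNA was not on the arrays, gave the background of each array as their 95th percentile (1.42 to 1.48), and 98.8% to 99.2% of the *S. cerevisiae* probe sets lay above it. The 2 arrays of a group differed with a standard deviation of 0.133 over these probe sets with nystatin + CdS QDs, 0.0954 with nystatin and 0.0898 in the untreated control. The 3′ minus 5′ signal of 7 control genes, a sign of RNA quality, was 1.58 and 1.58 with nystatin + CdS QDs, 1.45 and 1.45 with nystatin, and 1.47 and 1.41 in the untreated control. It was highest on the CdS QDs arrays, on which 6 *FRE* genes were also highest, and its part in their values was not tested. As a check of the strain, *URA3* and *LYS2* lay below background on all 6 arrays, *LEU2* was between 1.29 and 2.29 and above background on 4 of them, and *HIS3*, which is only partly deleted, was between 7.84 and 8.63. The 4 alpha-cell genes looked at were above background on all arrays, and so were the 6 genes of the opposite mating type, at 3.57 to 6.48. A level above the *S. pombe* background therefore does not by itself show that a gene was expressed, which holds for the *FRE* genes too.

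With nystatin + CdS QDs, 6 of the 8 *FRE* genes were higher than in the untreated control, from 1.33-fold for *FRE4* to 17.0-fold for *FRE5*. *FRE3* rose 2.19-fold, *FRE6* 1.94-fold, *FRE1* 1.83-fold and *FRE2* 1.39-fold. *FRE8* did not pass the test and *FRE7* was lower, at values close to background. A gene is said to have risen or fallen where its p in a limma fit, after Benjamini-Hochberg adjustment over 5498 *S. cerevisiae* probe sets, was under 0.05. By that test 75.4% of all these probe sets differed, 36.5% higher and 38.9% lower, so a single call was common on these arrays. The arrays of the groups did not overlap for 7 of the 8 members, as for 87.5% of all probe sets. Where a log2 change of 1 or more in size and an unadjusted p under 0.01 were required, *FRE3* and *FRE5* were higher, as were 4.95% of all probe sets, and no member was lower, against 5.15%. Both genes are in the paper's list of up-regulated genes, and as that list was drawn from these arrays it gives no independent evidence of direction. The median log2 fold change of the 8 members was 0.67, beside −0.01 over all probe sets tested. Of the 6 genes of the opposite mating type, 2 were higher and 3 lower by the adjusted p, from −1.10 for *STE2* to 0.61 for *AGA2*. The log2 fold changes of *FRE2* and *FRE4* lay within that range, so their calls alone do not set them apart from those genes.

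**Figure D1:**
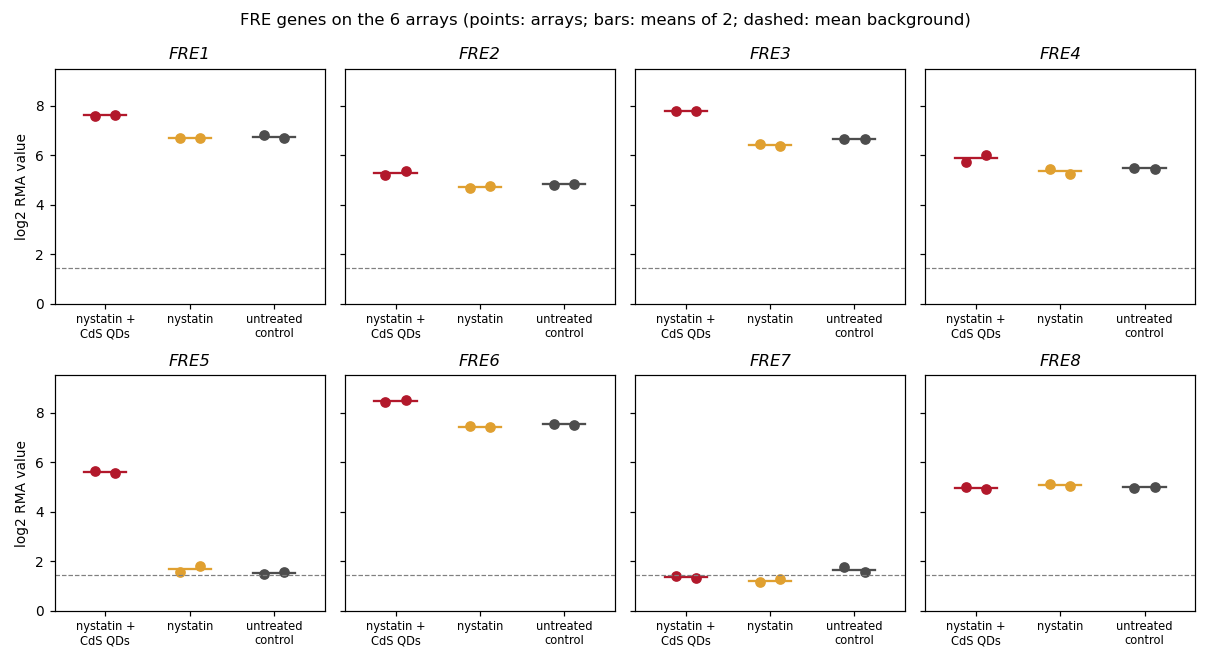
Log2 RMA value of each FRE gene on the 6 arrays (points), with the mean of the 2 arrays of a group (bar) and the mean background of the arrays (dashed line, 1.45). FRE5 stands near 5.6 with nystatin + CdS QDs and near background in the other groups, FRE7 lies near background in all 3, and FRE8 stays near 5.

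*FRE1*, *FRE2*, *FRE3* and *FRE4* encode reductases of the cell surface. *FRE1*, for the main surface reductase of iron and copper, had log2 values of 7.60 and 7.63 with nystatin + CdS QDs, 6.71 and 6.71 with nystatin, and 6.80 and 6.68 in the untreated control. Both CdS QDs arrays were above the other 4, and the nystatin arrays lay between the control arrays. The log2 fold change of *FRE1* with nystatin + CdS QDs against the untreated control was 0.87 (standard error 0.052, adjusted p = 7.50e-06). *FRE2*, for the second surface reductase of iron, had 5.21 and 5.37 with nystatin + CdS QDs, 4.68 and 4.77 with nystatin, and 4.80 and 4.84 in the untreated control. The CdS QDs arrays again stood apart, and the nystatin arrays lay 0.03 below the nearest control array. *FRE2* was higher by 0.47 against untreated cells (standard error 0.065, adjusted p = 4.83e-04). The 95% confidence interval of *FRE2*, from 0.32 to 0.63, did not reach the log2 fold change of *FRE1*, though the difference between the genes was not tested.

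The products of *FRE3* and *FRE4* reduce iron held by siderophores, small iron chelates made by microbes, of which yeast makes none itself. *FRE3* had log2 values of 7.78 and 7.80 with nystatin + CdS QDs, 6.45 and 6.36 with nystatin, and 6.67 and 6.65 in the untreated control. The 3 groups of *FRE3* did not overlap, with nystatin lowest and nystatin + CdS QDs highest. Its log2 fold change with nystatin + CdS QDs against the untreated control was 1.13 (standard error 0.047, adjusted p = 1.55e-06). *FRE4* had 5.74 and 6.01 with nystatin + CdS QDs, 5.45 and 5.26 with nystatin, and 5.48 and 5.45 in the untreated control. Its 2 CdS QDs arrays differed more from each other than those of any other member but lay above the other 4. *FRE4* was higher by 0.41 against untreated cells (standard error 0.10, adjusted p = 0.00802). The call of *FRE4* ended without empirical Bayes moderation (adjusted p = 0.0821) and with all probe sets on the array in the fit (adjusted p = 0.0523).

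*FRE5*, a putative ferric reductase gene that resembles *FRE2* and is induced by low iron, had the widest change of the family. It had log2 values of 5.66 and 5.57 with nystatin + CdS QDs, 1.55 and 1.81 with nystatin, and 1.49 and 1.57 in the untreated control. The arrays without CdS QDs were only 0.06 to 0.33 above the background, whereas those with CdS QDs were 4.23 and 4.12 above it. The log2 fold change against the untreated control was 4.09 (standard error 0.087, adjusted p = 1.24e-07). With the background raised to the 99th percentile of those *S. pombe* values, a setting chosen after the values had been seen, *FRE5* lay below background on all 4 arrays without CdS QDs. Only a bound could then be given, at least 13.6-fold higher with nystatin + CdS QDs than in the untreated control. The log2 fold change of *FRE5* was 4.08 with repeated quantile normalization and with median centring, and 4.04 to 4.13 with an array left out. The other alternatives to the fit leave its group means as they are, so they could change only the standard error and p. Without empirical Bayes moderation, where its adjusted p was highest, that p was 0.00113.

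*FRE6* encodes the reductase of the vacuolar membrane, which readies stored iron and copper for export to the cytosol. It had log2 values of 8.45 and 8.53 with nystatin + CdS QDs, 7.46 and 7.40 with nystatin, and 7.55 and 7.51 in the untreated control. As with *FRE2* and *FRE3* the 3 groups did not overlap, but the nystatin arrays lay only 0.06 below the nearest control array. The log2 fold change of *FRE6* with nystatin + CdS QDs against the untreated control was 0.95 (standard error 0.049, adjusted p = 3.90e-06).

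*FRE7*, the member under copper control alone, had log2 values of 1.42 and 1.30 with nystatin + CdS QDs, 1.17 and 1.26 with nystatin, and 1.76 and 1.55 in the untreated control. All 4 treated arrays were below background and both control arrays slightly above it. *FRE7* fell by 0.30 on the log2 scale with nystatin + CdS QDs against untreated cells (standard error 0.079, adjusted p = 0.0120), but since one side was not above background only a bound is given, at least 1.16-fold lower with nystatin + CdS QDs. By the same test *LYS2*, deleted in this strain and below background on all arrays, was lower too, at −0.21 (adjusted p = 0.00368). *LEU2*, also deleted, was higher at 0.55 (adjusted p = 0.00319), and *URA3* was at 0.0053 (adjusted p = 0.913). A call at these levels therefore does not by itself show a change in expression. With the 99th percentile as background no group of *FRE7* was above it and no fold could be given. The call was lost when untreated control replicate 1 (adjusted p = 0.0737) or nystatin + CdS QDs replicate 2 (0.0616) was left out, and also without moderation (0.0878), with an intensity trend in the moderation (0.122) and with all probe sets fitted (0.0648), in a range of 0.00635 to 0.122 over 15 alternatives.

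*FRE8*, whose product is like an iron or copper reductase and has been linked to iron homeostasis, had log2 values of 4.99 and 4.90 with nystatin + CdS QDs, 5.11 and 5.02 with nystatin, and 4.97 and 5.01 in the untreated control. The CdS QDs arrays overlapped the control arrays. The log2 fold change of *FRE8* was −0.05 (standard error 0.054, adjusted p = 0.447), with a 95% confidence interval from −0.17 to 0.08. *FRE8* was at least 3.45 above the background on every array, so both groups gave a measured value.

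With nystatin alone none of the 8 *FRE* genes rose above the untreated control and 2 fell, where 10.4% of all probe sets were higher and 11.4% lower, 21.8% in all. The arrays of the groups did not overlap for 5 members (*FRE2*, *FRE3*, *FRE6*, *FRE7* and *FRE8*), as for 70.1% of all probe sets. No member reached a log2 change of 1 in size. Of all probe sets 0.0364% did so upward and 0.0728% downward with an unadjusted p under 0.01. *FRE3* fell by 0.25 (standard error 0.047, adjusted p = 0.0130) and *FRE7* fell by 0.44 (standard error 0.079, adjusted p = 0.0123; at least 1.14-fold lower with nystatin than in the untreated control, since both nystatin arrays were below background). The other 6 had log2 fold changes from −0.11 to 0.15, of which *FRE5* was the highest, with an adjusted p of 0.250, and *FRE6* had the smallest adjusted p, 0.164. In all, 6 of the 8 differences with nystatin were negative, and their median was −0.10, beside −0.01 over all probe sets. Of the deleted genes, *URA3* and *LYS2* were lower too, at −0.23 (adjusted p = 0.0116) and −0.20 (adjusted p = 0.0204). *LEU2*, at −0.23, did not pass (adjusted p = 0.183). A call at the level of *FRE7* therefore does not by itself show a fall in expression. The call of *FRE3* depended on single arrays, with −0.24 (adjusted p = 0.102) when untreated control replicate 1 was left out, −0.27 (0.0727) without untreated control replicate 2 and −0.21 (0.0914) without nystatin replicate 2. That of *FRE7* did so too, with an adjusted p of 0.0809 without untreated control replicate 1, 0.0770 without nystatin replicate 1 and 0.0655 without nystatin replicate 2. Calls over all probe sets fell in the same way, to 81 higher and 87 lower without untreated control replicate 1, against 570 and 627 with all arrays.

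With nystatin + CdS QDs against nystatin alone, groups whose treatments differed only by CdS QDs, the same 6 members were higher as against the untreated control. By the same test 75.0% of all probe sets differed, 36.7% higher and 38.3% lower. For all 8 members the arrays did not overlap, as for 87.4% of all probe sets. This comparison and the one with the untreated control share the 2 CdS QDs arrays, so each is given by its own values. The log2 fold change was 3.94 for *FRE5* (standard error 0.087, adjusted p = 1.44e-07), 1.38 for *FRE3* (standard error 0.047, adjusted p = 7.15e-07), 1.06 for *FRE6* (standard error 0.049, adjusted p = 2.66e-06) and 0.91 for *FRE1* (standard error 0.052, adjusted p = 6.77e-06). *FRE2* and *FRE4* were at 0.56 (adjusted p = 2.03e-04) and 0.52 (adjusted p = 0.00261). Of the 6 genes of the opposite mating type, 2 were higher and 2 lower here, from −0.81 for *STE2* to 0.54 for *MFA2*. *FRE4* lay within that range and *FRE2* just above it. Where a log2 change of 1 or more in size and an unadjusted p under 0.01 were required, *FRE3*, *FRE5* and *FRE6* were higher, as were 4.87% of all probe sets, and no member was lower, against 4.66%. *FRE8* was at −0.12 (adjusted p = 0.0759, 95% confidence interval −0.25 to 0.01), and *FRE7* at 0.15 (adjusted p = 0.135), a value between groups that were both below background and for which no fold is given.

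**Figure D2:**
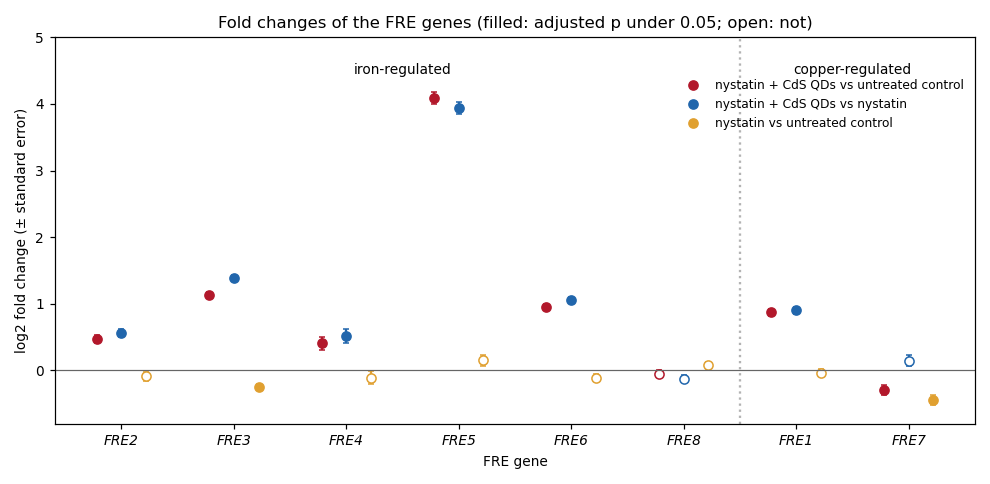
Log2 fold change of each FRE gene in the 3 comparisons (points, with the standard error of the fit), filled where the adjusted p was under 0.05. With CdS QDs the iron-regulated members spread from −0.05 (FRE8) to 4.09 (FRE5), and FRE1, on the copper side, lies at 0.87 while FRE7 lies at −0.30, near background.

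The iron-regulated members were set against the copper-regulated ones as a description, with no test over the members. With nystatin + CdS QDs against the untreated control the 6 iron-regulated members had a median log2 fold change of 0.71, and the 2 copper-regulated members 0.29, a difference of 0.42. The copper median takes *FRE7* at its measured values, which were below background with nystatin + CdS QDs. With *FRE7* at its bound, a setting chosen after the values had been seen, the copper median was 0.33 and the difference 0.38. On single arrays the difference of medians, after each gene was set to 0 at its control mean, was 0.34 and 0.51 with nystatin + CdS QDs, 0.21 and 0.12 with nystatin, and −0.08 and 0.08 in the untreated control. That centring fixes the control values as mirror images around 0, and the values of the treated arrays include *FRE7* below background. *FRE1*, a copper-regulated member, lay within the range of the iron-regulated ones, above *FRE2* and *FRE4*. *FRE8*, an iron-regulated member, lay outside the range of the 5 others of its class, and without it the difference of medians was 0.66. With nystatin alone the medians were −0.10 for the iron-regulated and −0.24 for the copper-regulated members, a difference of 0.14. It was 0.06 without untreated control replicate 1, 0.22 without untreated control replicate 2 and 0.01 with *FRE7* at its bound. Against nystatin *FRE7* was below background in both groups, so that the copper class had only *FRE1* as a measured member.

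*FRE3* and *FRE5* are near neighbours in the R64 annotation, on either side of *FIT2* and *FIT3*, which encode mannoproteins of the cell wall that retain siderophore iron. The log2 values of *FIT2* were 12.29 and 12.27 with nystatin + CdS QDs, 9.09 and 9.15 with nystatin, and 8.26 and 8.30 in the untreated control. With nystatin + CdS QDs against the untreated control the log2 fold changes were 1.13 for *FRE3*, 4.0 for *FIT2*, 2.81 for *FIT3* and 4.09 for *FRE5*. The nearest genes outside these 4 were looked at after the values of the *FRE* genes had been seen. *RDR1*, next to *FRE3*, rose by 0.28 (standard error 0.052, adjusted p = 0.00216), and *YOR385W*, next to *FRE5*, fell by 2.58 (standard error 0.058, adjusted p = 1.31e-07). *YOR381W-A*, between *FRE3* and *FIT2*, was at 0.27 (standard error 0.20, adjusted p = 0.269). With nystatin alone *FIT2* rose by 0.83 and *FIT3* by 0.40, while *FRE3* fell by 0.25 and *FRE5* was at 0.15 with an adjusted p of 0.250. Of the *FRE* genes only *FRE5* has a gene of the iron and copper lists, *FIT3*, directly beside it, as *YOR381W-A* lies between *FRE3* and *FIT2*.

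**Figure D3:**
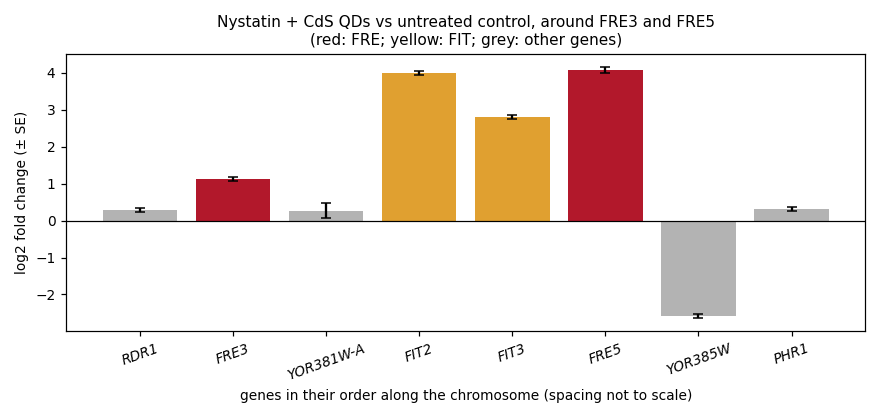
Log2 fold change with nystatin + CdS QDs against the untreated control (bars, with the standard error of the fit) for FRE3, FRE5 and the genes around them, in their order in the R64 annotation with spacing not drawn to scale. FRE3, FIT2, FIT3 and FRE5 rise by 1.13 to 4.09, YOR381W-A between them is at 0.27, and YOR385W just beyond FRE5 is at −2.58.

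Likeness of pattern was measured for *FRE3* and *FRE5*, the members past a log2 fold change of 1, as the root mean square distance between the 6 log2 values of 2 genes after each gene's own mean was taken off. Among 5441 other genes the nearest to *FRE3* were *RPS27A*, a ribosomal protein gene (distance 0.033), *CLA4*, a kinase gene of bud growth (0.035), and *ARI1*, a reductase gene (0.051), and 185 genes lay within 0.2. *FRE5* had no gene within 0.2. The nearest to it were *SUL2*, a sulphate permease gene (0.348), *FIT2* (0.351) and *HBN1*, a nitroreductase-like gene (0.397). The 6 values hold 3 groups only, so the distance is a description of those group means. It was not scaled to the size of a change, so the number of genes within 0.2 depends on that size. With nystatin + CdS QDs against the untreated control *FRE5* ranked 2 and *FRE3* 202 from the highest log2 fold change.

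The 5 genes listed as partners in the uptake of reduced iron were higher too with nystatin + CdS QDs. The log2 fold changes that follow are against the untreated control unless stated. *FET3*, for the oxidase that takes up the reduced iron, had log2 values of 10.92 and 10.85 with nystatin + CdS QDs, 8.14 and 8.09 with nystatin, and 8.0 and 8.03 in the untreated control, and rose by 2.87 (standard error 0.048, adjusted p = 7.36e-08). Its partner *FTR1* was at 1.72, *CCC2* and *ATX1*, which bring copper to Fet3, at 1.92 and 1.14, and the low-affinity transporter gene *FET4* at 1.40. All 5 of these genes rose, where 36.5% of all probe sets were higher and 38.9% lower. *FET4* also rose by 0.63 with nystatin alone (adjusted p = 8.39e-04) and was 0.77 higher with nystatin + CdS QDs than with nystatin. Among the 22 targets of Aft1 and Aft2 outside the *FRE* family, which include many genes of the other lists, 21 rose and 1 fell (*ISU1*, for a scaffold of iron-sulphur clusters, at −0.25, named after its values were seen), with a median of 1.75 beside 0.71 for the iron-regulated *FRE* genes. With nystatin alone 4 of the 22 rose and 3 fell, where 10.4% of all probe sets were higher and 11.4% lower. *ISU1* was among those that fell with nystatin alone, also at −0.25 (adjusted p = 0.0331). Against nystatin 21 rose and none fell, where 36.7% were higher and 38.3% lower, and *ISU1* was at 0.0015 (adjusted p = 0.985). All 4 genes of the transporters that take up iron with its siderophore rose, *ARN2* by 2.67 and *ENB1* by 2.19, beside 1.13 for *FRE3* and 0.41 for *FRE4*. At the vacuole, where *FRE6* rose by 0.95, the iron exporter genes *SMF3*, *FTH1* and *FET5* rose by 1.08, 0.88 and 0.65, and the copper exporter gene *CTR2* by 0.53.

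Of 4 targets of Mac1 outside the *FRE* family, 1 rose, 1 fell and 2 did not pass. By the same test 36.5% of all probe sets were higher and 38.9% lower. *CTR3*, a copper transporter gene, rose by 1.18 (standard error 0.068, adjusted p = 6.66e-06) and *REE1* fell by 0.69 (standard error 0.052, adjusted p = 2.18e-05). *CTR1* and *IRC7* were at 0.18 (adjusted p = 0.116) and −0.11 (adjusted p = 0.0804), beside 0.87 for *FRE1* and −0.30 for *FRE7*. *CTR1*, the main copper transporter gene, rose by 0.78 with nystatin alone (adjusted p = 0.00385), where *FRE1* was at −0.03, and was lower with nystatin + CdS QDs than with nystatin alone (−0.60, adjusted p = 8.60e-04). Of 3 measured genes that copper excess induces through Cup2, *SOD1* rose by 0.17, *CRS5*, a metallothionein gene, fell by 0.89, and *CUP1-1* rose by 0.13, against the same shares of all probe sets.

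Of the 9 regulator genes, 4 rose, 3 did not pass and 2 fell, where 36.5% of all probe sets were higher and 38.9% lower. *AFT1* rose by 0.99 (standard error 0.058, adjusted p = 6.97e-06) and *AFT2* by 0.17 (adjusted p = 0.0215), while *MAC1* was at −0.06 (adjusted p = 0.332). *GRX4*, for a glutaredoxin that holds Aft1 back when iron is ample, fell by 1.55 (standard error 0.048, adjusted p = 5.02e-07), and *CUP2* fell by 0.97. Of the partners of Grx4 in that restraint, named after their values were seen, *BOL2* rose by 0.80 (adjusted p = 1.43e-05), and *GRX3* and *FRA1* were at 0.05 (adjusted p = 0.275) and 0.11 (adjusted p = 0.0814). Fre proteins contain heme, and of the 8 genes of heme synthesis 3 rose, 3 fell and 2 did not pass, against the same shares of all probe sets, with *HEM12* at 0.56 and *HEM15*, for the last enzyme of the pathway, at −0.94. *AIM14*, a further gene of the reductase superfamily outside the *FRE* names, fell by 0.18 (standard error 0.046, adjusted p = 0.00819).

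**Figure D4:**
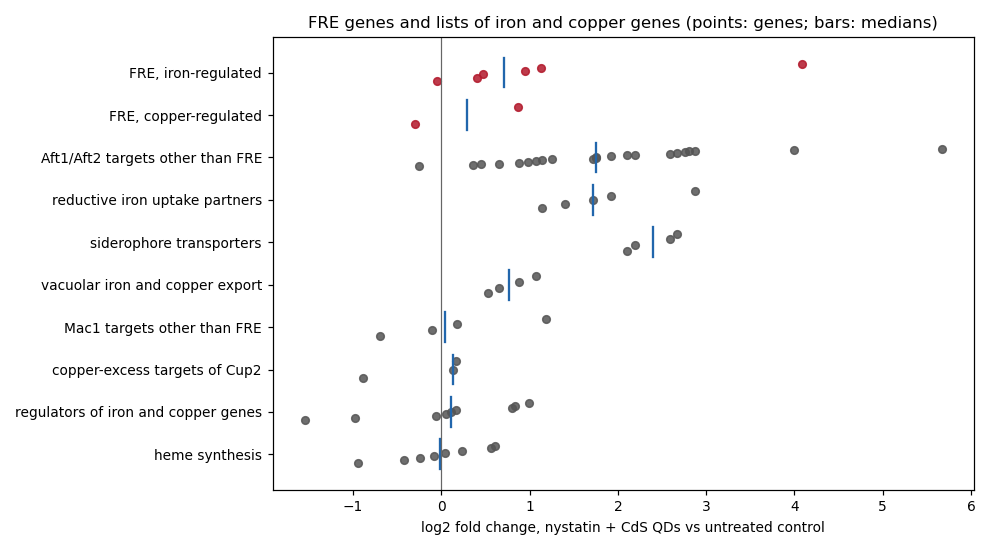
Log2 fold change with nystatin + CdS QDs against the untreated control for the FRE genes (red points) and for lists of iron and copper genes (grey points), with the median of each row (blue bar); a gene may stand in more than 1 list, and the point at the far right has control arrays below background. The medians are 0.71 for the iron-regulated FRE genes, 0.29 for the copper-regulated ones, 1.75 for the other Aft1 and Aft2 targets and 0.04 for the other Mac1 targets.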

How the data were processed

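The deposited log2 values were made by the authors in Expression Console by RMA, a method that subtracts background, brings the arrays to a shared distribution and combines the probes of a probe set. They were used as deposited, and scanned intensities were not used. This processing compresses values near background, so folds of *FRE5* and *FRE7* are uncertain there, and the number of arrays limits the precision. Probe sets were named by the platform table and the R64 annotation. Coordinates and sequences were not used here.

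A linear model with a mean for each group was fitted to 5498 *S. cerevisiae* probe sets with limma 3.58.1 under R 4.3.3 (residual degrees of freedom 3, prior 3.80), two-sided, with Benjamini-Hochberg adjustment over all of them. The fit was tested on simulated data. Where both arrays of a group were below background, a bound on the fold is given, taken against the lowest *S. cerevisiae* value above background on each array, or the gene's own where higher.

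Members, lists and classes were chosen with earlier results of these data known. Named genes are the 8 members, the uptake, vacuolar and Mac1 genes with *AFT1*, *AFT2*, *MAC1* and *AIM14*, 2 genes of each other list with the smallest adjusted p, and the nearest patterns and neighbours. Alternatives were no moderation, an intensity trend, only the 4 arrays compared, a replicate block, all probe sets, a filter on dim ones, repeated quantile normalization, median centring, gene means, the paper's thresholds, other classes, and each array left out. Python 3.11.15 and matplotlib 3.10.9 made the figures.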

Additional observations from a re-analysis of the deposited data

How the results depend on the processing

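Over 15 alternatives to the fit, the calls of *FRE1*, *FRE2*, *FRE3*, *FRE5* and *FRE6* as higher with nystatin + CdS QDs held against both the untreated control and nystatin; that of *FRE4* was lost against nystatin without moderation (adjusted p = 0.0501) and against the untreated control in the settings given above. At the thresholds of the paper the count of members higher became 2 against the untreated control and 3 against nystatin. It stayed at 6 in both comparisons whichever array was left out. The count of members lower against the untreated control (1, *FRE7*) became 0 without moderation, with an intensity trend, with all probe sets fitted and at the thresholds of the paper, and was 0 to 1 when an array was left out. With nystatin alone the count lower (2) became 0 without moderation, with all probe sets fitted and at the thresholds of the paper, became 1 with an intensity trend, and was 0 to 2 with an array left out. Over all probe sets the count lower, 627, was 84 without moderation, 28 with all probe sets fitted and 746 with an intensity trend. With nystatin + CdS QDs against nystatin the count lower (0) became 1, *FRE8*, with repeated quantile normalization, and was 0 to 1 with an array left out. The cause was not tested.

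The difference of class medians, with *FRE7* at its measured values, was 0.42 with nystatin + CdS QDs against the untreated control and 0.29 against nystatin (0.20 to 0.37 with an array left out). It was 0.66 against the untreated control and 0.53 against nystatin without *FRE8*, 1.01 and 0.66 without *FRE1*, 1.17 and 0.76 with *FRE1* in the iron class, and 0.88 and 0.70 with means. Without *FRE1*, or with it in the iron class, the copper class is *FRE7* alone, so these values rest on arrays below background, on both sides against nystatin, and are no measure of a fold. With nystatin alone the difference of medians was 0.34 without *FRE1* and 0.35 with *FRE1* in the iron class. Signs turned only for differences that had not passed: with repeated quantile normalization *FRE8* was at 0.020 against the untreated control and *FRE7* at −0.043 against nystatin, and without untreated control replicate 1 *FRE1* was at 0.027 with nystatin alone, in a range of −0.092 to 0.027.

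With the replicate number as a block the counts higher and lower were 6 and 1 against the untreated control, 6 and 0 against nystatin, and 0 and 2 with nystatin alone, with no call changed. The labels do not tie arrays of the same number together, and their deviations correlated at −0.05 to 0.02 between groups. Signal over background limits *FRE7* in every comparison and *FRE5* in the groups without CdS QDs. All arrays of *FRE2*, *FRE4*, *FRE5* and *FRE8*, and those of *FRE3* with nystatin, lay below 6.48, the highest value of the genes of the opposite mating type. Their level above background therefore does not by itself show expression.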
